A study of Danio rerio with 15 samples.

Results

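The most abundant transcripts of untreated zebrafish larvae were described in poly(A)-selected RNA of pooled whole larvae at 72 h post fertilisation, and followed through exposure to 2 pesticides. Estimated counts were scaled by the median of ratios over the 29953 transcripts above 0 in all 15 libraries, and transcripts with a mean scaled count above 10000 over the 3 control libraries were kept. This left 270 of 64995 transcripts, fewer than the permitted 300. Their control levels chose them, so those levels are a description and carry no test.

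The 5 groups of 3 libraries were tefluthrin at 2.3 µM, tefluthrin at 60 nM, acetochlor at 7.8 µM, acetochlor at 780 nM and untreated control, all wild-type larvae of the NHGRI-1 strain. Exposure lasted from 48 to 72 h post fertilisation. Each library came from a pool of larvae, and the labels do not say whether the pools of a group came from separate clutches, so p-values measure the spread between these pools. Because whole larvae were pooled, fewer cells of a type and less RNA per cell cannot be told apart. Library totals ran from 17354405 to 25191374 estimated counts.

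In animal tissues a small set of transcripts typically supplies a large part of the poly(A) RNA, and in fish larvae such sets are known to include transcripts of ribosomal proteins, muscle filament proteins and the mitochondrial genome. Tefluthrin is a pyrethroid insecticide, a class that holds voltage-gated sodium channels open. Acetochlor is a chloroacetanilide herbicide, a class that blocks the elongation of very long chain fatty acids in plants. The files give Ensembl transcript identifiers without gene names, and 0 of the 64995 identifiers matched the name tables used here, so no member is given a gene or a role. Abundance here means counts, which grow with transcript length, so the ranks do not order molecules.

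The counts were concentrated in few transcripts. In control, 60 transcripts held 25% of the counts and 408 held 50%. The 270 members held 44.4% ± 0.715 (SD, n = 3), of which the 10 most abundant held 10.6% ± 0.106. The scaled control count was 312370 at rank 1, 137027 at rank 10, 40229 at rank 50 and 23841 at rank 100, with a median of 19703 over all members. The lowest member, ENSDART00000184034.1, had a mean of 10021 (10021, 10046 and 9995 in the control libraries). The first transcript outside, ENSDART00000004692.9, had 9991 (10146, 9889 and 9938). The threshold cut through a continuous range, with 22 members up to 10% above it and 37 transcripts up to 10% below it. All 270 members passed the filter on low counts.

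Most members were steady between control pools. The median coefficient of variation between control libraries was 5.71%, close to the 5.87% of the 2302 transcripts with mean scaled counts of 1000 to 10000. Estimates were whole numbers, to within 1e-09, in every library in 40 members (14.8%), against 21.2% of all 35865 transcripts tested. The others had a fractional estimate in at least 1 library, a sign that some of their reads were shared out among several transcripts, and their levels depend on that assignment. The median coefficient of variation was 4.49% in members with whole estimates and 5.95% in the other 230.

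The spread was not the same in every group. Members varied with a median coefficient of variation of 6.10% at tefluthrin 2.3 µM, 6.30% at tefluthrin 60 nM and 5.51% at acetochlor 7.8 µM. At acetochlor 780 nM it was 11.7%, and 9.34% in the transcripts of 1000 to 10000. The acetochlor 780 nM pools were therefore less alike than those of the other groups.

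The first question was how much of each library the members held. At tefluthrin 2.3 µM they held 44.7%, 45.2% and 43.4% of the counts. In the tefluthrin 60 nM libraries they held 41.6%, 40.8% and 42.3%. At acetochlor 7.8 µM the shares were 42.4%, 42.6% and 41.5%. At acetochlor 780 nM they were 44.7%, 46.4% and 41.1%, and in control 44.2%, 45.2% and 43.8%. The share was thus lower in every library of tefluthrin 60 nM and of acetochlor 7.8 µM than in any control library, while the other exposed groups overlapped with control. Wilson 95% intervals of these shares reached at most 0.0231 percentage points to either side, and cover counting error only.

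**Figure D1:**
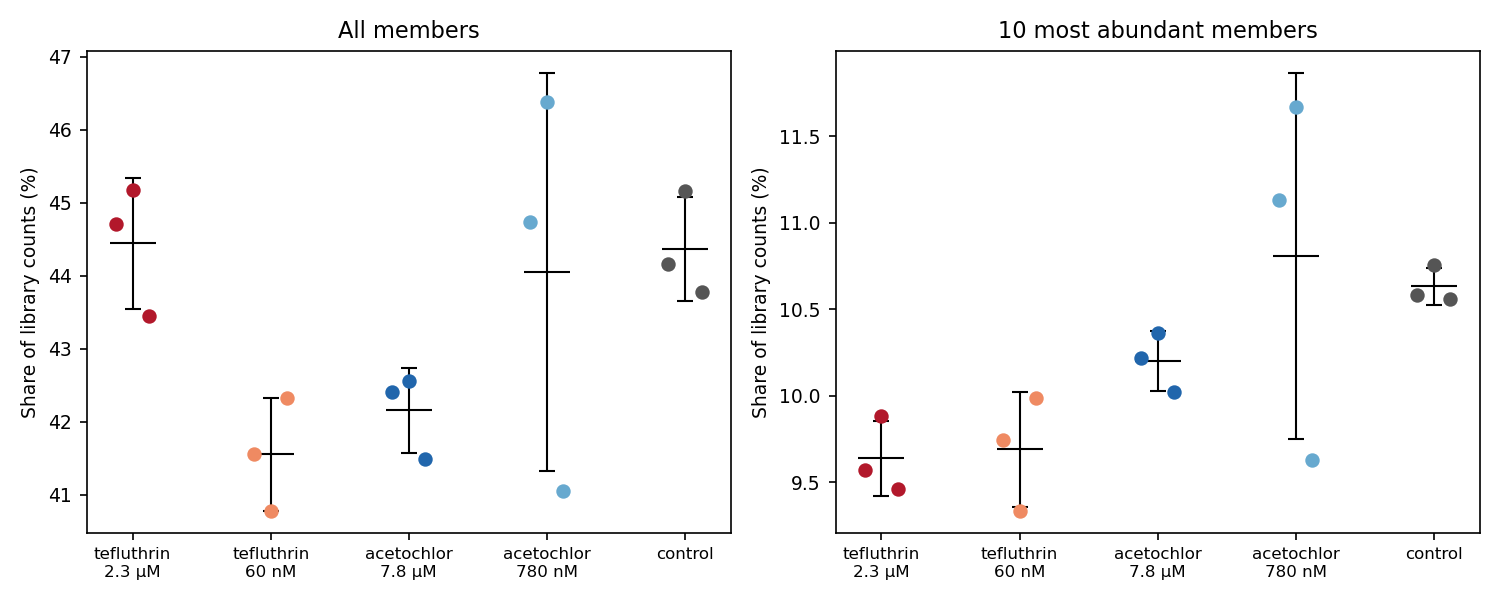
Share of library counts (%, vertical axis) held by all 270 members (left) and by the 10 most abundant (right) in each library; bars are the mean ± SD of 3 libraries, and the vertical axes do not start at 0. Shares of all members at tefluthrin 60 nM (40.8% to 42.3%) and acetochlor 7.8 µM (41.5% to 42.6%) lie below the control libraries (43.8% to 45.2%).

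The difference from control was 0.0758 percentage points at tefluthrin 2.3 µM (44.4% ± 0.895 against 44.4% ± 0.715, SD, n = 3 each; exact two-sided permutation test, p = 0.9). With tefluthrin 60 nM it was -2.81 points (41.6% ± 0.773 against 44.4% ± 0.715; exact p = 0.1). At acetochlor 7.8 µM it was -2.21 points (42.2% ± 0.579 against 44.4% ± 0.715; exact p = 0.1), and at acetochlor 780 nM -0.315 points (44.1% ± 2.73 against 44.4% ± 0.715; exact p = 0.9). The control libraries in these comparisons also chose the members, which leans the exposed groups down. With members chosen on all 15 libraries the differences were 1.24, -1.96, -2.02 and -0.206 points in the same order. That choice draws mostly on exposed libraries, so transcripts raised by exposure can enter and lean these differences up. An exact test of 3 libraries against 3 cannot go under 0.1, and the smallest of the 6 p-values adjusted by Benjamini-Hochberg was 0.2.

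The concentrations were compared without the control libraries, which chose the members. The members held 44.4% ± 0.895 at tefluthrin 2.3 µM and 41.6% ± 0.773 at 60 nM, a difference of 2.89 points with no overlap between the groups (exact p = 0.1). They held 42.2% ± 0.579 at acetochlor 7.8 µM and 44.1% ± 2.73 at 780 nM, a difference of -1.90 points (exact p = 0.4). The acetochlor difference was within the spread of the 780 nM libraries: it was -3.40 points without acetochlor 780 nM replicate III and -0.738 points without replicate II.

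The share moved differently at different ranks. The 10 most abundant members held 9.64% ± 0.218 at tefluthrin 2.3 µM, 9.69% ± 0.330 at 60 nM and 10.2% ± 0.173 at acetochlor 7.8 µM, against 10.6% ± 0.106 in control, with no overlap with control in any of the 3 groups. Control counts put these 10 first, which leans every exposed group down, so this is a description with no test. The 100 members at ranks 51 to 150 held 13.5% ± 0.393 at tefluthrin 2.3 µM and 11.9% ± 0.222 at 60 nM, against 13.1% ± 0.223 in control. Between the tefluthrin concentrations, which did not set the ranks, the difference was 1.64 points at ranks 51 to 150 and -0.0504 points in the 10 most abundant (exact p = 0.1 and 0.9). It was 0.443 points at ranks 11 to 50 and 0.858 points at the lower ranks (exact p = 0.1 each, no overlap between the groups).

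An almost equal total can hide opposite movements. Between tefluthrin 2.3 µM and control, 145 members gained 6.0 percentage points of the library in sum, and the sum over the other 125 fell by 5.93. At tefluthrin 60 nM, 74 members gained 2.79 points and the sum over the other 196 fell by 5.61. With acetochlor 7.8 µM, 56 gained 1.04 points and the sum over the other 214 fell by 3.26. The control libraries chose the members, which leans the exposed groups down, and such counts over all transcripts are not given here. The largest single loss at both tefluthrin concentrations was that of ENSDART00000012644.7, to 0.569% of the library at 2.3 µM and 0.434% at 60 nM, against 1.08% in control. The largest single gain at both was that of ENSDART00000123003.3, to 1.42% at 2.3 µM and 1.25% at 60 nM, against 0.823% in control. This transcript also had the largest gain at acetochlor 7.8 µM (to 0.978%) and at acetochlor 780 nM (to 0.922%). Both acetochlor groups overlapped with control, however. In CPM, the scaled count put on 1 library size, it had 10675, 9316 and 7937 at acetochlor 7.8 µM. At 780 nM it had 8494, 12103 and 6997 CPM, with replicate II far above the others, against 8448, 7645 and 8466 CPM in control. It was not called in either acetochlor comparison with control by the edgeR test described below (adjusted p = 0.930 at 7.8 µM). It was singled out after its values were seen.

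The second question was which members changed. Counts were scaled by TMM, a trimmed mean of ratios between libraries, and tested with edgeR's quasi-likelihood test in 1 model over the 35865 transcripts that passed the low-count filter. Calls were made under 0.05 after Benjamini-Hochberg adjustment over all of these. At tefluthrin 2.3 µM, 161 of the 270 members (59.6%) were called against control, 108 higher and 53 lower, where 29.8% of all transcripts tested were called, 14.4% higher and 15.4% lower. Of the 40 members with whole estimates, 14 were called higher and 14 lower there, and of the 230 with fractional ones 94 higher and 39 lower. At tefluthrin 60 nM, 78 members (28.9%) were called, 21 higher and 57 lower, where 16.4% of all were called, 8.47% higher and 7.92% lower. Both comparisons use the same controls, which also chose the members and lean them down. With members chosen on all 15 libraries, 128 were called higher and 45 lower at 2.3 µM. At 60 nM 39 were then called higher and 48 lower, so the balance of directions there depended on the choice of members. Lower calls were the more numerous under both choices. The choice on all 15 libraries lets transcripts raised by exposure enter, which can lean those members up. Among the 2302 transcripts of the next level, with 1000 to 10000 scaled counts, 56.9% were called at 2.3 µM, near the share of the members, and 40.7% at 60 nM, above it.

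The direction of the calls at 2.3 µM depended on the scaling. Scaled by library totals alone, 76 members were called higher and 76 lower at tefluthrin 2.3 µM, and 28 higher and 91 lower at 60 nM. Of all transcripts, 10.5% were then called higher and 20.6% lower at 2.3 µM, and 8.66% higher and 7.46% lower at 60 nM. All transcripts tested then had a median log2 fold change of -0.15 at 2.3 µM, where TMM gave -0.02. The members' median was 0.0569 with library totals and 0.19 with TMM, in both cases 0.21 above that of all transcripts tested. The count at 60 nM was 51 without tefluthrin 60 nM replicate I and also 51 without control replicate II.

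Changes of the members were small. Their log2 fold changes at tefluthrin 2.3 µM had a median of 0.19 (quartiles -0.17 and 0.31), against -0.02 for all transcripts tested, and 197 of 270 were under 0.5 in size. At tefluthrin 60 nM the median was -0.16 (quartiles -0.28 and 0.02), against -0.00305 for all, and 229 were under 0.5 in size. Among the called members, 8 were higher and 10 lower by more than 1 on the log2 scale at 2.3 µM, where 9.67% of all transcripts tested were called and past that size. By the same measure 1 was higher and 12 were lower at 60 nM, where 4.73% of all were. The control libraries chose the members, so a chance high in control leans these values down. When the members were chosen by the same threshold on the mean of all 15 libraries (274 transcripts, 252 of them shared), the medians were 0.23 at 2.3 µM and -0.15 at 60 nM. Exposed libraries entered that choice, which can lean these medians up.

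**Figure D2:**
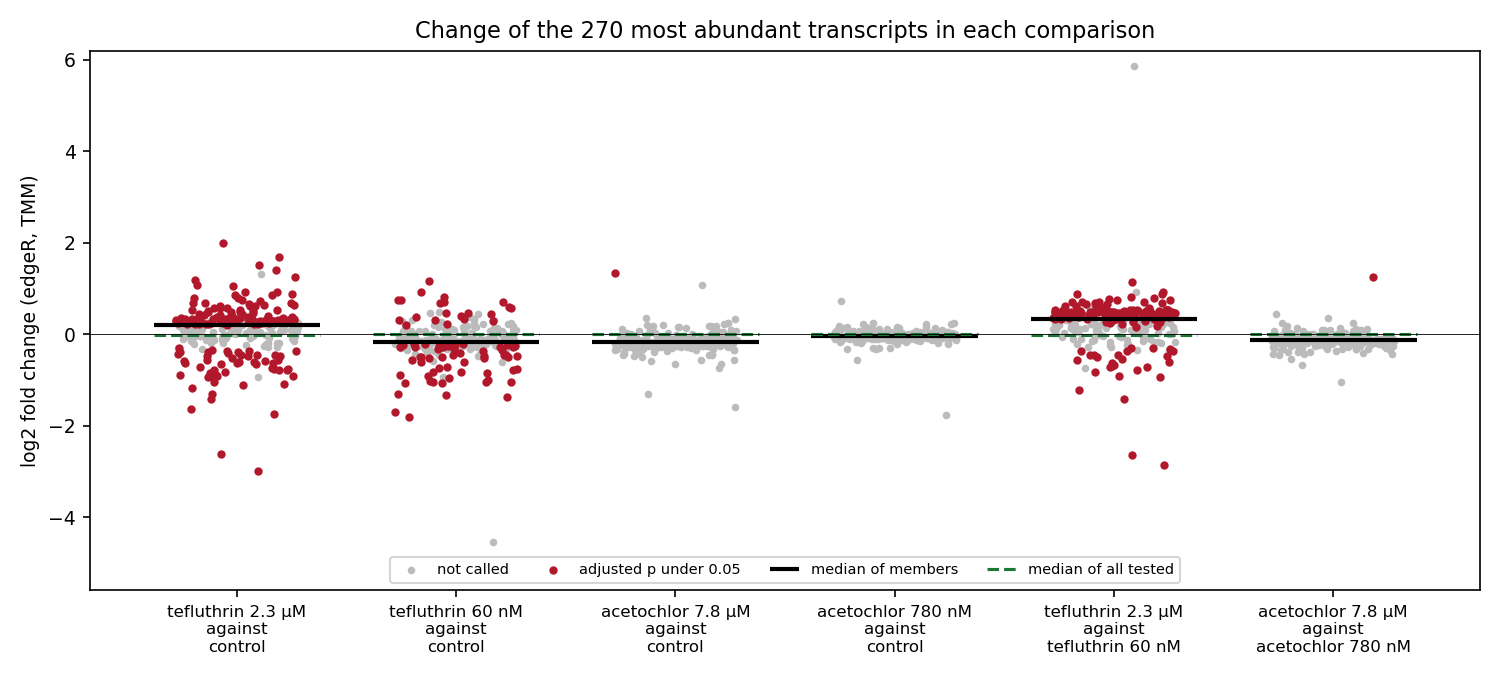
log2 fold change (vertical axis) of each of the 270 members (points, spread sideways for legibility) in the 6 comparisons, with the median of the members (solid line) and of all transcripts tested (dashed line); red points have an edgeR adjusted p-value under 0.05. The members' median lies at 0.19 for tefluthrin 2.3 µM, -0.16 for tefluthrin 60 nM and 0.33 between these concentrations.

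Acetochlor gave few calls. At 7.8 µM, 1 of the 270 members was called against control, higher, where 0.106% of all transcripts were called. At 780 nM edgeR's quasi-likelihood test called 0 members, where 0% of all were called; 5 members had an unadjusted p-value under 0.05, all lower, where 2.53% of all did, and DESeq2 and limma voom also called 0 members (0.261% and 0% of all). The members' log2 fold changes at 7.8 µM nevertheless lay mostly on one side: 234 were below 0 and 36 above, with a median of -0.18 (quartiles -0.24 and -0.08), against 0.00223 for all transcripts tested. At 7.8 µM 116 members had an unadjusted p-value under 0.05 and were lower, and 2 were higher, where 3.79% and 3.33% of all transcripts were. In 151 members (55.9%) every acetochlor 7.8 µM library was below every control library, where 7.35% of all transcripts showed this. DESeq2 called 26 members (25 lower) at 7.8 µM, where it called 1.23% of all transcripts, 0.715% higher and 0.513% lower, so the count of calls depended on the test. Members share their libraries and are not independent, so these counts describe 1 shift in 3 libraries. The control libraries also chose the members, which leans the values of both acetochlor groups down and raises the counts of lower members.

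The shift could be read in each library. Relative to the control mean, the median log2 difference of the members was 0.22, 0.23 and 0.09 in the tefluthrin 2.3 µM libraries and -0.19, -0.22 and -0.12 in the 60 nM libraries. It was -0.16, -0.15 and -0.21 in the acetochlor 7.8 µM libraries. At acetochlor 780 nM it was 0.01, 0.04 and -0.22, so that replicate III lay at the level of the higher concentration and replicates I and II among the controls, which were at -0.01, 0.07 and -0.05. The median of all tested transcripts lay between -0.01 and 0.01 in every library. Control levels chose the members, which leans the exposed libraries down here.

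**Figure D3:**
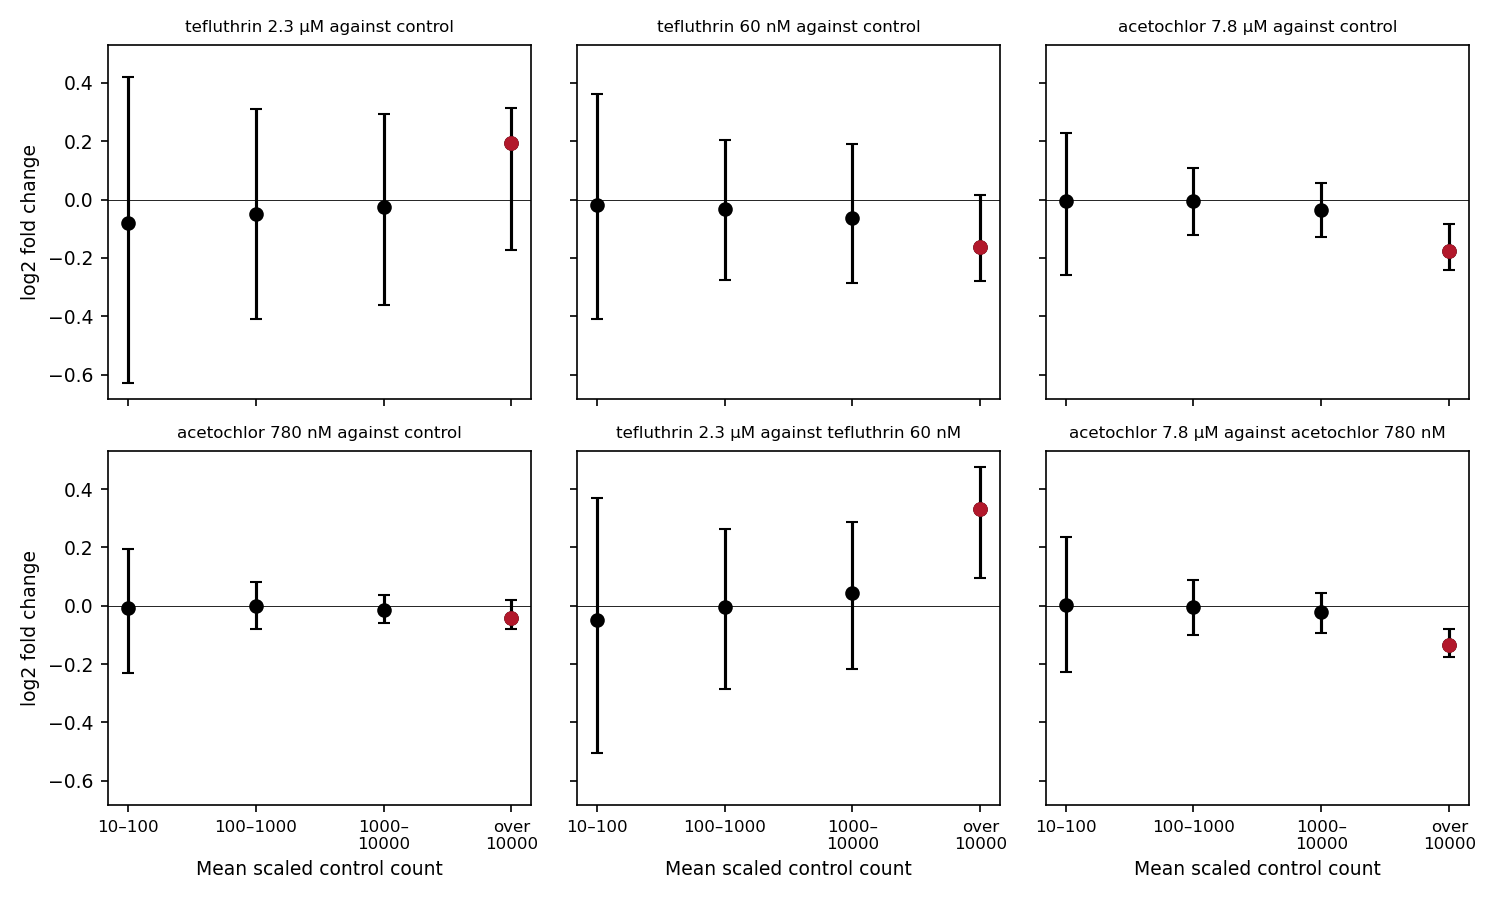
Median log2 fold change (points) and quartiles (bars) of transcripts by mean scaled control count (horizontal axis) in the 6 comparisons, with the members in red. The 3982 tested transcripts under 10 scaled counts are not drawn. Against control their medians were 0.57 at tefluthrin 2.3 µM, 0.58 at tefluthrin 60 nM, 0.40 at acetochlor 7.8 µM and 0.31 at acetochlor 780 nM. Low control counts set that level, which leans it up. The medians of transcripts of 1000 to 10000 scaled counts lie between -0.06 and 0.04 in all 6 panels, and those of the members between -0.18 and 0.33. The quartile ranges of these levels overlap in every panel.

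By median log2 fold change the members stood apart from the next level down. Transcripts of 1000 to 10000 scaled counts had a median log2 fold change of -0.03 at tefluthrin 2.3 µM, -0.06 at tefluthrin 60 nM and -0.04 at acetochlor 7.8 µM, where the members had 0.19, -0.16 and -0.18. Between the tefluthrin concentrations these transcripts stood at 0.04 and the members at 0.33. At acetochlor 780 nM these transcripts had -0.015 and the members -0.042. The values against control use the libraries that set the levels and chose the members, which leans the members down.

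The contrast between the tefluthrin concentrations leaves out the control libraries, although these entered the common filter, scaling and estimate of spread. At 2.3 µM against 60 nM, 165 of 270 members (61.1%) were called, 138 higher and 27 lower at 2.3 µM, where 19.1% of all transcripts were called, 9.08% higher and 10% lower. Among transcripts of 1000 to 10000 scaled counts 42.6% were called, 542 higher and 438 lower. A fit of the 12 exposed libraries alone, added after seeing the data, called 160 members, 133 higher and 27 lower, where it called 17.7% of all. The members' median log2 fold change was 0.33 (quartiles 0.09 and 0.48), against -0.01 for all transcripts tested. Scaled by library totals alone, 110 members were called higher and 42 lower, where 5.2% of all were called higher and 15.8% lower, and the medians were 0.18 for the members and -0.16 for all. By rank, 5 of the 10 most abundant members were called, 3 of them higher, and 70 of the 100 at ranks 51 to 150, 64 of them higher. Among the 40 members with whole estimates, 18 were called higher and 10 lower, and among the 230 with fractional ones 120 higher and 17 lower.

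Between the acetochlor concentrations 1 member was called, higher at 7.8 µM, where 0.0669% of all transcripts were called. The members' median was -0.13 and 236 of 270 lay below 0, against a median of -0.00361 for all transcripts tested. This median was -0.21 without acetochlor 780 nM replicate III and -0.09 without replicate II.

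**Figure D4:**
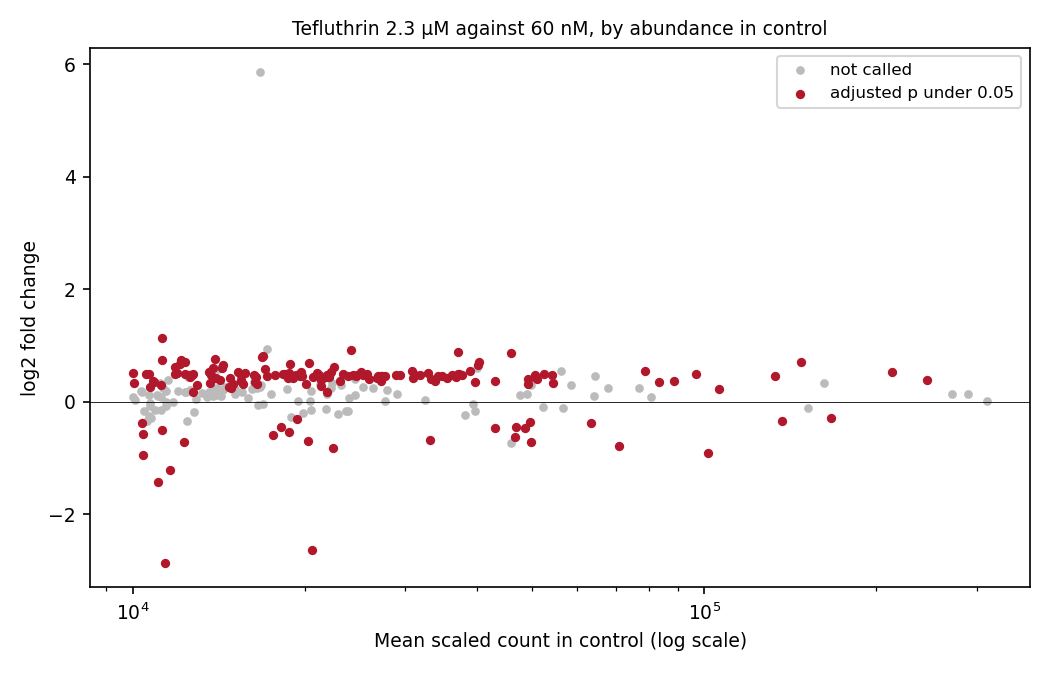
log2 fold change between tefluthrin 2.3 µM and 60 nM (vertical axis) of the 270 members against their mean scaled count in control (horizontal axis, log scale); red points have an edgeR adjusted p-value under 0.05. Of the 270, 124 lie in a narrow strip between 0.3 and 0.6 that runs through all ranks.

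The members did not scatter evenly around that median. Between the tefluthrin concentrations, 124 of the 270 (45.9%) had a log2 fold change between 0.3 and 0.6, where 13.3% of all transcripts tested and 16.7% of those of 1000 to 10000 scaled counts did. These edges were set after the values were seen and the strip carries no test. They enclose the members' own median of 0.33 and not the -0.01 of all transcripts tested. The higher share of members between them therefore follows in part from that choice. It held 3 of the 10 most abundant members, 17 of the 40 at ranks 11 to 50, 62 of the 100 at ranks 51 to 150 and 42 of the 120 at lower ranks. Whole estimates were present in 17 of the 124.

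The 124 transcripts also lay closer together than the other 146 members in the acetochlor comparisons. At acetochlor 7.8 µM their quartiles were -0.25 and -0.17, an interquartile range of 0.0864, against 0.181 in the other 146 members. Their median was -0.21 and 116 of the 124 were below 0, whereas the other 146 had a median of -0.13. The choice of the 124 by a narrow range of fold change left members far from that range, unsteady ones included, among the 146. Part of the difference in spread can follow from this choice, so it is a description and not separate evidence for the strip. The control libraries, which chose all members, also enter the comparison with control. Against control, the 124 had a median of 0.27 at tefluthrin 2.3 µM and -0.20 at tefluthrin 60 nM. In sum they held 22.2% ± 0.587 of the counts at tefluthrin 2.3 µM, 18.2% ± 0.183 at tefluthrin 60 nM, 18.7% ± 0.105 at acetochlor 7.8 µM and 19.6% ± 1.35 at acetochlor 780 nM, against 20.1% ± 0.386 in control. The order of the tefluthrin groups in these medians and sums was fixed by the choice of the 124. By library the sum was 22.5%, 22.5% and 21.5% at tefluthrin 2.3 µM and 18.3%, 18.0% and 18.3% at 60 nM, against 20.1%, 20.4% and 19.7% in control.

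The 5 highest members in control were described in every library, in CPM, the count scaled by TMM and put on 1 library size. The highest, ENSDART00000093606.3, had 16815, 16926 and 16782 CPM at tefluthrin 2.3 µM, 16705, 15170 and 17867 at tefluthrin 60 nM, and 15982, 16270 and 14417 at acetochlor 7.8 µM. It had 17918, 16889 and 14937 CPM at acetochlor 780 nM, against 15838, 16308 and 15162 CPM in control. It was at rank 1 in all 5 groups and was not called in any comparison (edgeR adjusted p-values of 0.389 or more).

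The next pair were also not called by edgeR with TMM in any comparison. ENSDART00000010144.7 averaged 13818 ± 838 CPM at tefluthrin 2.3 µM, 12465 ± 727 at tefluthrin 60 nM, 12968 ± 720 at acetochlor 7.8 µM and 14311 ± 1541 at acetochlor 780 nM, against 14604 ± 645 CPM in control (SD, n = 3 each). Its nearest approach to the threshold was at tefluthrin 60 nM (log2 fold change -0.23, edgeR adjusted p = 0.0728; 0.0145 when scaled by library totals alone, 0.0366 with DESeq2). Scaled by library totals alone it was also called at tefluthrin 2.3 µM, with -0.22 (edgeR adjusted p = 0.00774), where TMM gave -0.08. ENSDART00000055062.5, with whole estimates, averaged 14095 ± 786, 12713 ± 592, 12166 ± 325 and 13329 ± 1623 CPM in the same 4 exposed groups, against 13673 ± 527 CPM in control.

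ENSDART00000075465.5 differed at the higher tefluthrin concentration. It had 15875, 16949 and 15314 CPM at 2.3 µM and 11843, 11719 and 13132 CPM at 60 nM, against 12060, 12825 and 12282 CPM in control. The 2.3 µM libraries were above all others of these 3 groups. The log2 fold change was 0.37 against control (SE 0.094, edgeR adjusted p = 0.00931) and 0.39 against 60 nM (SE 0.094, edgeR adjusted p = 0.0118). It averaged 11050 ± 702 CPM at acetochlor 7.8 µM and 12502 ± 1902 at 780 nM, and was not called in either comparison with control.

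ENSDART00000012644.7 was lower in both tefluthrin groups. It had 7045, 6613 and 5018 CPM at 2.3 µM and 3440, 4514 and 4886 CPM at 60 nM, against 11145, 11143 and 9980 CPM in control. All 6 exposed libraries were below the controls, and the 60 nM libraries were the lowest. The log2 fold change was -0.79 at 2.3 µM (SE 0.172, edgeR adjusted p = 0.00385) and -1.33 at 60 nM (SE 0.173, edgeR adjusted p = 0.000188). The concentrations differed by 0.54 (SE 0.171, edgeR adjusted p = 0.0438), a call lost in the fit of the 12 exposed libraries alone (adjusted p = 0.064), when scaled by library totals alone (0.102), with no filter on low counts (0.0736) and in 4 of the 6 fits without 1 library. At acetochlor 7.8 µM it had 8268, 8697 and 10755 CPM, which overlapped with control. Its rank was 12 at tefluthrin 2.3 µM and 16 at 60 nM, against 5 in control.

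Other members were named for their change at tefluthrin 2.3 µM, so their values there are given as the extremes of the list. ENSDART00000129561.3, at rank 161 in control, had 3582, 3181 and 3420 CPM at 2.3 µM and 2025, 1640 and 2085 CPM at 60 nM, against 801, 860 and 896 CPM in control. All 6 tefluthrin libraries exceeded the controls. Its log2 fold change was 1.99 at 2.3 µM (SE 0.213, edgeR adjusted p = 1.99e-05) and 1.17 at 60 nM (SE 0.208, edgeR adjusted p = 0.0018). The log2 difference of the concentrations was 0.82 (edgeR adjusted p = 0.0147; 0.0602 without tefluthrin 60 nM replicate II and 0.0519 without tefluthrin 2.3 µM replicate I).

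ENSDART00000032481.6, at rank 45 in control, followed the same order of groups. It had 7729, 7607 and 6986 CPM at 2.3 µM and 4398, 3477 and 4285 CPM at 60 nM, against 2141, 2308 and 2500 CPM in control. Its log2 fold change was 1.68 at 2.3 µM (SE 0.208, edgeR adjusted p = 6.27e-05) and 0.81 at 60 nM (edgeR adjusted p = 0.0161). The call at 60 nM was lost in 4 of the 6 fits without 1 library, namely without control replicate I (adjusted p = 0.0658), control replicate II (0.0573), tefluthrin 60 nM replicate I (0.0598) or replicate III (0.0511). At acetochlor 780 nM both of these transcripts had 1 library apart from the others. In replicate II ENSDART00000129561.3 stood at 1506 CPM and ENSDART00000032481.6 at 3749 CPM, against 766 and 773 CPM, and 2143 and 1823 CPM, in replicates I and III.

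The lowest called members at 2.3 µM were ENSDART00000002046.8 and ENSDART00000067160.4, at ranks 237 and 126 in control. ENSDART00000002046.8 had 57.9, 46.2 and 113 CPM at 2.3 µM and 592, 539 and 445 CPM at 60 nM, against 554, 446 and 729 CPM in control. Its level at 2.3 µM was far under every other library, and 60 nM overlapped with control. Its log2 fold change was -2.99 against control (SE 0.371, edgeR adjusted p = 6.42e-05) and -2.86 against 60 nM (SE 0.369, edgeR adjusted p = 0.000251). At 2.3 µM its rank was 1892.

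ENSDART00000067160.4, with whole estimates, had 135, 100.5 and 274 CPM at 2.3 µM and 1226, 1071 and 866 CPM at 60 nM, against 1058, 794 and 1276 CPM in control. The 2.3 µM libraries again lay below all others. The log2 fold change was -2.62 against control (SE 0.401, edgeR adjusted p = 0.000331) and -2.63 against 60 nM (SE 0.401, edgeR adjusted p = 0.000726), and 0.02 between 60 nM and control (edgeR adjusted p = 0.993). Both transcripts varied between control pools, with coefficients of variation of 24.8% and 23.2%, and both were lowest among the acetochlor 780 nM libraries in replicate II, at 350 and 594 CPM.

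**Figure D5:**
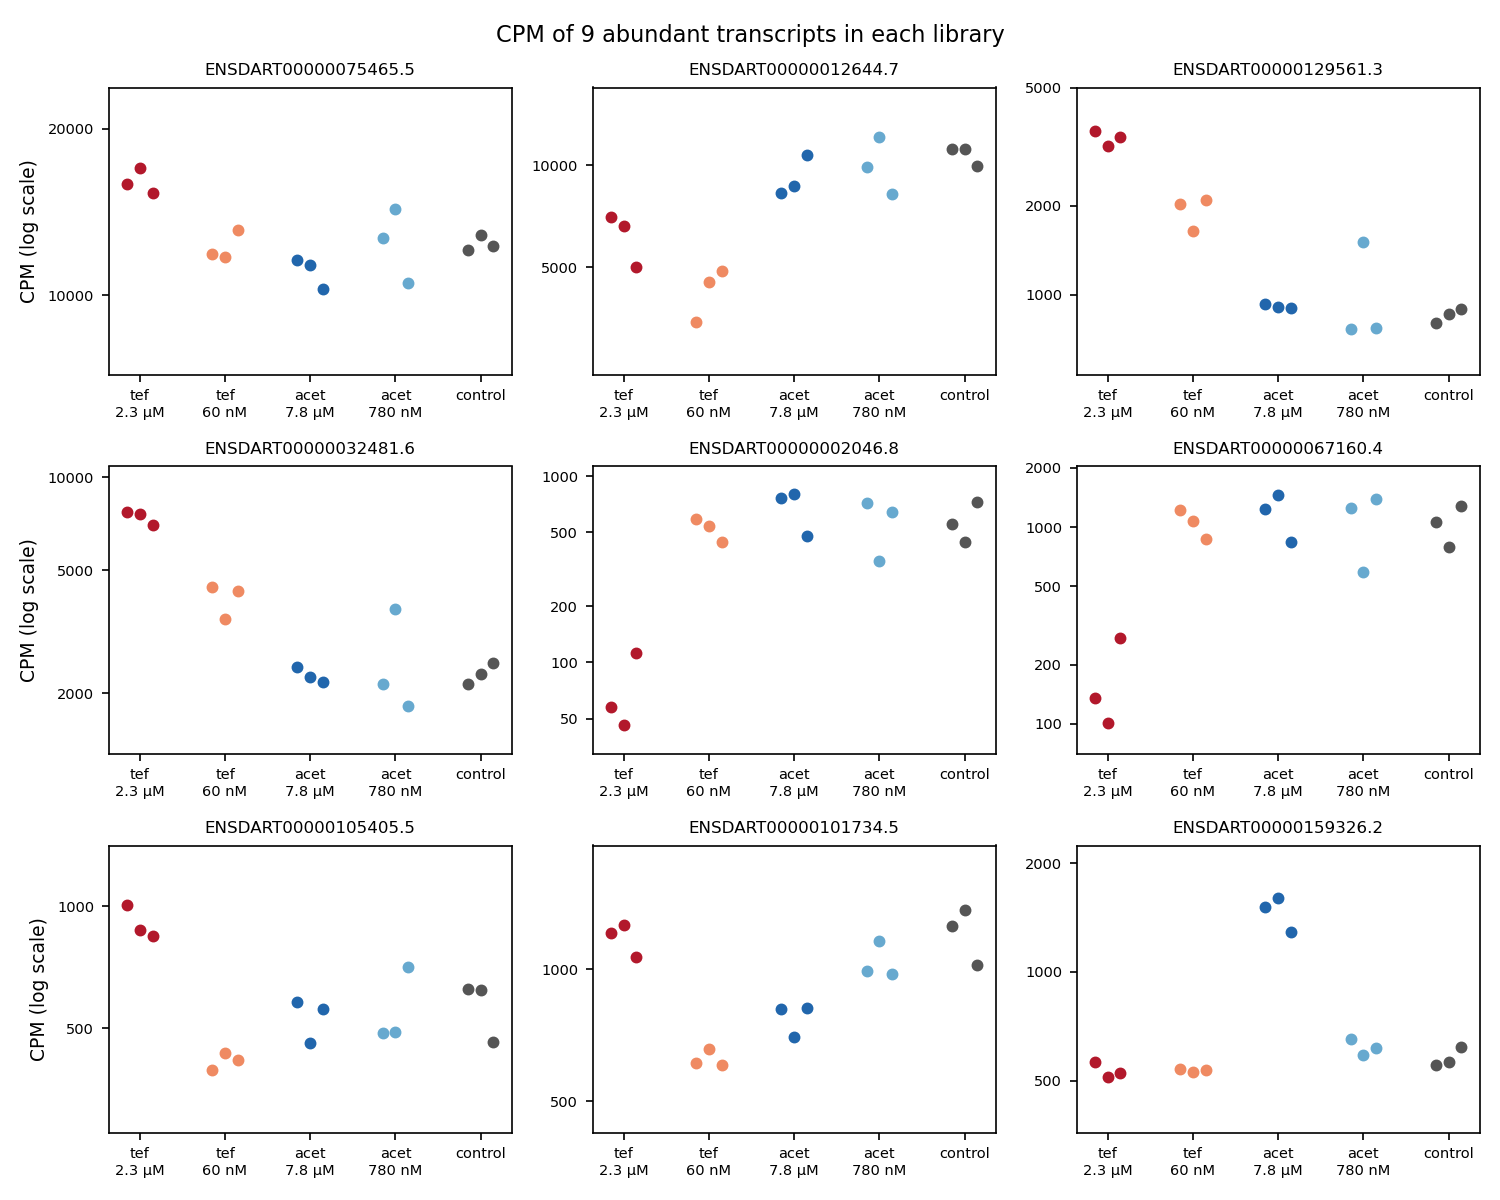
CPM (log scale) of 9 members in each library, by group: tefluthrin 2.3 µM, tefluthrin 60 nM, acetochlor 7.8 µM, acetochlor 780 nM and control. ENSDART00000002046.8 and ENSDART00000067160.4 are low at tefluthrin 2.3 µM and overlap elsewhere, and ENSDART00000159326.2 is high at acetochlor 7.8 µM, between 1288 and 1599 CPM.

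The 2 members named for being highest at 2.3 µM relative to 60 nM had every 60 nM library below every control library. The same held in 137 of the 270 members (50.7%) and in 17.5% of all transcripts tested. The choice of these 2 by their difference from 60 nM also favours low values at 60 nM. ENSDART00000105405.5 had 1009, 875 and 842 CPM at 2.3 µM, against 393, 433 and 417 CPM at 60 nM (log2 fold change 1.13, SE 0.159, edgeR adjusted p = 0.000436). It had 624, 622 and 462 CPM in control, between these groups. It was called against control at 2.3 µM (0.67, edgeR adjusted p = 0.00588), whereas at 60 nM the log2 fold change was -0.46 (edgeR adjusted p = 0.0689; 0.0254 with DESeq2 and 0.0267 without control replicate III).

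ENSDART00000101734.5 had 1208, 1264 and 1063 CPM at 2.3 µM, against 609, 658 and 605 CPM at 60 nM (log2 fold change 0.92, SE 0.111, edgeR adjusted p = 0.000167). In control it had 1257, 1368 and 1023 CPM, so the 2.3 µM libraries overlapped with control and the 60 nM libraries were below (-0.96, edgeR adjusted p = 7.16e-05). At acetochlor 7.8 µM it had 811, 700.2 and 813 CPM, also below every control library (-0.65, edgeR adjusted p = 0.0555; 0.0486 with limma voom, 7.22e-06 with DESeq2, 0.0392 when scaled by library totals alone and 0.0143 without control replicate III). Between the acetochlor concentrations it was -0.43 (edgeR adjusted p = 0.533, and 0.0326 with DESeq2).

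ENSDART00000159326.2, at rank 235 in control, was the member called at acetochlor 7.8 µM. It had 1511, 1599 and 1288 CPM at 7.8 µM and 654, 588 and 618 CPM at 780 nM, against 552, 563 and 619 CPM in control. The 7.8 µM libraries were above all others, while 780 nM overlapped with control. The log2 fold change was 1.34 against control (SE 0.079, edgeR adjusted p = 1.15e-05) and 1.24 against 780 nM (SE 0.079, edgeR adjusted p = 2.83e-05). Tefluthrin libraries averaged 535 ± 27.0 CPM at 2.3 µM and 536 ± 5.29 at 60 nM, and it was not called in either comparison with control (at 2.3 µM, edgeR adjusted p = 0.324, and 0.0297 with a log2 fold change of -0.25 when scaled by library totals alone).

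The makeup of the list was also compared between groups. Above the same threshold of 10000 there were 310 transcripts at tefluthrin 2.3 µM, of which 245 were members (90.7% of the members and 79.0% of that group's list). At tefluthrin 60 nM there were 269, with 236 members (87.4% and 87.7%). At acetochlor 7.8 µM there were 248, with 241 members (89.3% and 97.2%), and at acetochlor 780 nM 264, with 256 members (94.8% and 97.0%). Most members that left the list had been near its edge: 16 of 25 at tefluthrin 2.3 µM and 24 of 29 at acetochlor 7.8 µM had under 12000 scaled counts in control. The 65 transcripts that entered at tefluthrin 2.3 µM included 1 with a control mean of only 159. The threshold was set on counts scaled by the median of ratios, so the lengths of these lists depend on that scaling. How far they do was not tested.

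Lists of equal length were also set side by side. By group mean, the 270 highest transcripts included 230 members at tefluthrin 2.3 µM and 237 at tefluthrin 60 nM. They included 254 at acetochlor 7.8 µM and 260 at acetochlor 780 nM. The 270 highest transcripts of a single library shared 254 to 260 between control libraries. They shared 223 to 234 between tefluthrin 2.3 µM and control libraries and 231 to 243 between tefluthrin 60 nM and control, under the range within control. For acetochlor they shared 244 to 258 at 7.8 µM and 247 to 257 at 780 nM, overlapping the range within control. Libraries of the same exposed group shared 257 to 261 at tefluthrin 2.3 µM and 254 to 260 at tefluthrin 60 nM. Within acetochlor groups they shared 249 to 257 at 7.8 µM and 237 to 251 at 780 nM. The last range overlaps that of tefluthrin 60 nM with control. Of the 10 highest in control, 6 were among the 10 highest at tefluthrin 2.3 µM, 8 at tefluthrin 60 nM, 9 at acetochlor 7.8 µM and 10 at acetochlor 780 nM.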

How the data were processed

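The authors deposited 1 file of estimated counts per library, 1 value per Ensembl transcript. Salmon 1.6.0, FastQC, MultiQC and the build GRCz11 are named in the submitters' processing notes; settings and the annotation release are not given in the sources used here. Estimated counts were rounded and filtered with edgeR's filterByExpr, which kept 35865 transcripts, holding 99.8% or more of every library. TMM scaling was applied, and the 15 libraries were fitted in 1 edgeR quasi-likelihood model with group as its only term. The standard error is the log2 fold change divided by the square root of F. log2 CPM used a prior count of 2. Alternatives were other scalings, DESeq2, limma voom, no filter, a replicate block, another choice of members and leaving out each library. Software used was R 4.3.3 with edgeR 4.0.16, limma 3.58.1, DESeq2 1.42.0, Python 3.11.15 and matplotlib 3.10.9.

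The members, lists and tests were chosen with earlier results of these data known. Named transcripts followed a rule: the 5 highest members in control, the 2 called members farthest in each direction, without overlap between libraries, for tefluthrin 2.3 µM against control and against 60 nM, up to 1 in each direction for acetochlor 7.8 µM against control, and the members next to the threshold. Planned lists by gene symbol were not used, since no identifier could be paired with a symbol. The compounds were not tested against each other, since their concentrations differ. Within groups, chi-square per degree of freedom over the 40 members with whole estimates was 40.8 to 742 for the 15 pairs, so each library was counted as 1 replicate. The labels give no batch. Column headers of the higher tefluthrin group give nanomolar where the labels give micromolar; the labels were followed.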

Additional observations from a re-analysis of the deposited data

Results flagged for a closer look

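A direct test found that the tefluthrin concentrations differed in 165 of the 270 members, where 19.1% of all transcripts tested were called. The acetochlor concentrations differed in 1 member, where 0.0669% of all were called. Between tefluthrin 2.3 µM and 60 nM the log2 fold change was 0.39 for ENSDART00000075465.5, 0.54 for ENSDART00000012644.7, 0.82 for ENSDART00000129561.3 and 0.88 for ENSDART00000032481.6. It was -2.86 for ENSDART00000002046.8 and -2.63 for ENSDART00000067160.4, and 1.13 for ENSDART00000105405.5, 0.92 for ENSDART00000101734.5 and 0.52 for ENSDART00000184034.1, the member next to the threshold. Between acetochlor 7.8 µM and 780 nM it was 1.24 for ENSDART00000159326.2. The tefluthrin call of ENSDART00000012644.7 was lost in 4 of the 6 fits without 1 library, and that of ENSDART00000129561.3 in 2 of the 6. The former was also lost under other settings, given above and below. ENSDART00000002046.8, ENSDART00000067160.4, ENSDART00000105405.5 and ENSDART00000101734.5 were named as extremes of this same tefluthrin contrast. Single outlying samples were not tested for in these groups of 3 libraries.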

How the results depend on the processing

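Scaled by library totals alone, the members had a median log2 fold change of 0.0569 at tefluthrin 2.3 µM, -0.11 at acetochlor 7.8 µM and 0.18 between the tefluthrin concentrations. With this scaling 119 members were called at tefluthrin 60 nM and 3 at acetochlor 7.8 µM, where 16.1% and 0.209% of all transcripts were. DESeq2 called 127 members at tefluthrin 60 nM, 26 at acetochlor 7.8 µM and 4 between the acetochlor concentrations. Of all transcripts it called 21.2%, 1.23% and 0.62% in the same order. Limma voom called 2 members at acetochlor 7.8 µM and 0.117% of all. With members chosen on all 15 libraries, the share differed from control by 1.24 points at tefluthrin 2.3 µM and -1.96 at 60 nM. Of these members 39 were called higher and 48 lower at 60 nM, where 8.47% and 7.92% of all transcripts were. Exposed libraries entered this choice, which can lean its shares and calls up. Without the 10 most abundant members the share differed by 1.07 and -1.87 points in these comparisons. The cause of these differences was not tested. Leaving out 1 library gave 51 to 81 called members at tefluthrin 60 nM, 1 to 3 at acetochlor 7.8 µM (3 without control replicate III, 2 without acetochlor 7.8 µM replicate III) and 1 to 2 between the acetochlor concentrations (2 without acetochlor 780 nM replicate III). It gave 130 to 162 at tefluthrin 2.3 µM and 129 to 154 between the tefluthrin concentrations. The shares of all transcripts called without 1 library are not given here. The share difference changed sign at tefluthrin 2.3 µM (-0.289 to 0.575 points) and at acetochlor 780 nM (-1.47 to 1.19 points). Of the alternatives for results that answer a comparison, 184 stayed within the set limits and 18 moved past them. For counts of called members the limits covered the total and not the direction, and a count that stayed at 0 also passed. The 184 thus include the 76 higher and 76 lower at tefluthrin 2.3 µM by library totals. They also include the 39 higher and 48 lower at 60 nM with members chosen on all 15 libraries. A share difference passed if it moved by less than the SD pooled over its 2 groups. Leaving out 1 of 3 libraries cannot move it that far, so those checks were bound to pass. The 184 therefore include the share differences that changed sign. The limit for medians was an SD between libraries of the same kind.

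Replicate numbers showed no sign of pairing the samples: the 18 correlations of same-numbered libraries' deviations ran from -0.07 to 0.02, and the same number gave the best correlation in 3 of these 18 pairings. These correlations ran over all transcripts tested, many of them with low counts and a wide spread, so a weak pairing could go unseen. With the replicate block, 167 members were called at tefluthrin 2.3 µM, 82 at 60 nM and 159 between these concentrations, where 27.8%, 14.7% and 17.1% of all transcripts were. In the acetochlor 7.8 µM comparisons 1 member each was called, where 0.0669% of all were against control and 0.0335% against 780 nM. The call of ENSDART00000012644.7 between the tefluthrin concentrations was lost with the block (edgeR adjusted p = 0.0644). Estimates divided between transcripts limit the 230 members with fractional values.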

Other observations

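A few members were unsteady, and were singled out after their values were seen. The coefficient of variation between control libraries exceeded 20% in 6 of 270, 5 of them with fractional estimates, and reached 124% in ENSDART00000110842.3. That transcript had 1730, 2034 and 2502 CPM at tefluthrin 2.3 µM. At tefluthrin 60 nM it had 4.65 and 104 CPM in replicates I and II and was listed at 0 in replicate III, where 3 counts come to 0.162 CPM. In control it had 2014 and 518 CPM in replicates I and II and was listed at 0 in replicate III, where 3 counts come to 0.119 CPM. It had 2021, 2259 and 1080 CPM at acetochlor 7.8 µM and 1025, 1140 and 2011 CPM at 780 nM. Its fitted log2 fold change was -4.55 at tefluthrin 60 nM against control (SE 1.84, edgeR adjusted p = 0.124) and 5.86 between the tefluthrin concentrations (SE 1.96, edgeR adjusted p = 0.0546), the farthest of any member in either comparison and not called.

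ENSDART00000126982.3 had 1264, 625 and 680.2 CPM at tefluthrin 2.3 µM, 246, 268 and 525 CPM at acetochlor 7.8 µM and 160.2, 193 and 408 CPM at acetochlor 780 nM, against 396, 2007 and 187 CPM in control, where replicate II alone placed it above the threshold. ENSDART00000138107.3 had 491, 336 and 1481 CPM at acetochlor 7.8 µM, against 1025, 2751 and 3170 CPM in control (log2 fold change -1.59, SE 0.586, edgeR adjusted p = 0.578).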
